A study of Mus musculus with 9 samples.

Results

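The 10 genes described here, Fos, Fosb, Jun, Junb, Jund, Egr1, Atf3, Ier2, Dusp1 and Zfp36, are immediate early response genes, chosen by name from the 27998 genes counted. They were measured in 1 single-cell library (10x Genomics) of the cells that had infiltrated the ascites, the fluid of the peritoneal cavity, in the ID8-Def29/Vegf model of ovarian cancer, with the genotype given as B6_WT. ID8 is a mouse ovarian surface epithelial line, and Def29/Vegf names the beta-defensin and the vascular growth factor that were added to it. Neither a treatment nor the number of animals is stated for it, so it is 1 sample of 1 condition. The series, whose title concerns iron chelation, also has bulk RNA from 8 cultures of the ID8-Def29/Vegf line, 4 with vehicle and 4 with the iron chelator deferiprone for 12 h. Those 8 libraries are not analysed here, so nothing below bears on iron chelation.

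Immediate early genes are transcribed within minutes of a growth factor, cytokine or stress signal, without new protein synthesis. MAP kinases act on factors already bound at their promoters, and the resulting messages are short-lived. Fos and Jun proteins pair through a leucine zipper to form AP-1, a factor that then acts on a second set of genes. Egr1, Atf3 and Ier2 are nuclear proteins of the same first wave. Dusp1 removes phosphate from MAP kinases, and Zfp36 (tristetraprolin) brings about decay of AU-rich messages, so that both limit the response. In macrophages Zfp36 and Dusp1 are known as brakes on inflammatory cytokines. These genes are also known to be switched on while tissue is dissociated into single cells.

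Promoter sequence is shown first, and 5 short motifs were looked for in it. The RefSeq promoter table (GRCm38.p6) matched 8 of the 10 members, all but Egr1 and Ier2, and 250 bases before each start site were searched on both strands. The short form TGACG of the cAMP response element was in 5 of the 8, namely Fos, Fosb, Junb, Atf3 and Dusp1, and in 17.8% of the 32851 promoters in the table. The full element TGACGTCA, which contains the short form, was in Dusp1 alone among the 8 and in 1.55% of all promoters. The Egr site GCGNGGGCG was in Fosb and Zfp36 and in 4.70% of all promoters. A CArG box, the site of serum response factor, was in Zfp36 and in 1.47% of all promoters. The variant AP-1 site TGACATCA was in Jun and in 2.93% of all promoters. None of the 5 motifs was found in the Jund window, but that window ends at position 70697738 of chromosome 8, upstream of the GENCODE start at 70698949, and does not cover the bases just before the latter. All 150 bases of the Zfp36 window lie within a GENCODE exon. A match is a string of letters in a fixed window and was not tested as a binding site. Sites further upstream or past the start were not searched, so the lack of a match does not mean that a gene lacks the site.

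The 150 bases before the start sites of Fos (chr12:85473740-85473889, plus strand), Jun (chr4:95052223-95052372, minus strand) and Junb (chr8:84978749-84978898, minus strand) are printed from 5′ to 3′ on the strand of the gene, with the motifs in capitals. They set 2 Jun family members whose levels went opposite ways between whole cell classes beside Fos.
Fos: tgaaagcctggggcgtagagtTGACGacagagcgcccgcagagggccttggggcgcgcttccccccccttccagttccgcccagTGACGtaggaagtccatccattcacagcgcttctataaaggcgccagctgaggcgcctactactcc
Jun: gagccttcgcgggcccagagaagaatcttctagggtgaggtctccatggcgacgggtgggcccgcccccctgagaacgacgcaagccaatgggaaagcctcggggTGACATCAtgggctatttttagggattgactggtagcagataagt
Junb: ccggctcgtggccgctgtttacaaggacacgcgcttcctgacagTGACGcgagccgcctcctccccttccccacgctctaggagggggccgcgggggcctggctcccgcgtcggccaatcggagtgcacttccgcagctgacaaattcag

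For 4 further members a stretch of 30 bases around the site is given, again from 5′ to 3′ on the strand of the gene. The sites lie at chr7:19310081-19310110 for Fosb (short form and Egr site), chr1:191183334-191183363 for Atf3 (short form, read on the opposite strand), chr17:26508597-26508626 for Dusp1 (full element) and chr7:28379267-28379296 for Zfp36 (CArG box), all genes of the minus strand.
Fosb: gcgggTGACGcaagcGCGGGGGCGggtccc
Atf3: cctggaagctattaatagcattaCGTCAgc
Dusp1: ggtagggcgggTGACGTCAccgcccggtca
Zfp36: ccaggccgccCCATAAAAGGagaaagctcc

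The cells came from 6442 barcodes with at least 500 unique molecular identifiers (UMIs, 1 for each captured message), at least 200 genes and at most 15% mitochondrial UMIs. Classes were set by summed marker UMIs. Tumour-like cells had at least 3 UMIs of Krt8, Krt18, Krt19, Wt1 and Upk3b and at most 1 of C1qa, C1qb and C1qc (the C1q genes), which gave 3628 cells. Macrophages had at least 3 C1q UMIs and at most 1 of the keratin set (1070 cells). The DC class had at least 1% of its UMIs from H2-Aa, H2-Ab1, H2-Eb1 and Cd74, at most 1 C1q UMI and no Cd79a or Cd79b (506 cells). B cells had at least 2 UMIs of Cd79a and Cd79b (87 cells) and T cells at least 2 of Cd3d, Cd3e and Cd3g (22 cells). The 40 barcodes that met more than 1 rule were left out, and 1089 met none. None of the 10 members is part of a class rule.

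The classes differed in depth and purity, which bears on every comparison. Median UMIs per cell were 5013 in tumour-like cells, 1639.5 in macrophages, 1347.5 in the DC class, 753 in B cells and 773 in T cells. Epithelial or mesothelial markers, the keratin set of the class rule among them, summed to 2033 counts per 1e6 UMIs (CPM) in tumour-like cells. Outside the class rule, Upk1b was at 41.2 CPM in tumour-like cells and 3.17 in macrophages, and Krt7 at 24.0 and 2.64. Msln was at 10.4 and 0.528 CPM and Muc16 at 4.99 and 1.06, in the same order. Epcam was at 1.21 CPM in tumour-like cells and Cdh1 and Pax8 at 0. The fibroblast gene Dcn was at 360 CPM there, with Col1a1, Col1a2 and Pdgfra at 2.77, 6.35 and 3.83. The tumour-like name rests mainly on the keratin set, and whether host mesothelial cells meet the rule was not tested. Macrophages held 11 of 11 macrophage markers at 50 CPM or more, but C1qa, C1qb and C1qc among these were part of the class rule. The DC class had Flt3 at 42.4 and Xcr1 at 14.1 CPM, but also macrophage markers summing to 978 CPM. Of 3 monocyte markers, Plac8 was at 684 CPM there, Ccr2 at 134 and Ly6c2 at 14.1. Plac8 was higher in B cells, at 1089 CPM, and Ccr2 in macrophages, at 166 CPM. B cells had the plasma cell gene Jchain at 3894 CPM, and haemoglobin made up 4.86% of their UMIs, against 1.37% in the DC class, 1.12% in macrophages and 0.168% in tumour-like cells. In the T cells 7 of 8 T cell markers were at 50 CPM or more, the Cd3 genes of the class rule among them. Cd8b1 was at 602 CPM (11 UMIs), Cd8a, Lck and Cd2 had 2, 3 and 2 UMIs, and Cd4 was at 0. Free RNA was estimated at 12.5% of UMIs in macrophages, 12.4% in the DC class, 18.3% in B cells and 32.2% in T cells. In tumour-like cells it came to 17.9%, or 5.05% with MHC class II genes left out of the estimate. These values use the profile of barcodes with 1 to 50 UMIs. Barcodes with 100 to 200 UMIs gave 32.6% in tumour-like cells, 9.35% in macrophages, 9.27% in the DC class, 13.7% in B cells and 24.2% in T cells. The estimate for tumour-like cells thus depends strongly on how it is made. The part of these differences in the member ratios was not tested, apart from the values given at matched depth and with free RNA subtracted.

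Summed over the 10 members, tumour-like cells stood at 2163 CPM (42956 UMIs), the DC class at 2242 CPM (1587 UMIs), macrophages at 1829.6 CPM (3466 UMIs), T cells at 1313 CPM (24 UMIs) and B cells at 735 CPM (54 UMIs). The 3 large classes thus had totals close to each other on this scale. When class sums were scaled by the median ratio over genes, the totals were 2639 CPM in macrophages, 3905 in the DC class and 1287 in B cells, so that closeness depends on the scaling. The totals of the small classes moved as well, to 385 CPM in B cells and 697 in T cells with free RNA subtracted, and to 164 in T cells with at least 1000 UMIs. With 1 library there is no replicate error and no test. Intervals below are 95% intervals for counting error only, and a member is counted as different when its CPM ratio was at least 2 or at most 0.5.

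In macrophages against tumour-like cells, all 10 members had enough UMIs to be compared. Dusp1 and Zfp36 were higher by 2-fold or more, as were 11.6% of the 10089 genes compared. Jun, Jund, Egr1 and Ier2 were lower by 2-fold or more, as were 36.4% of all genes. The median log2 ratio was -0.49 over the members and -0.56 over all genes, so the members as a set sat near the general shift, and their spread on either side of it was wide. In the DC class against tumour-like cells, Zfp36, Junb and Dusp1 were higher (5.95% of 7363 genes) and Jun and Jund lower (44.7% of genes), with a median of -0.12 over the members and -0.84 over all genes.

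The general shift depends on the scaling. When class sums were scaled by the median ratio over genes in place of total UMIs, all ratios moved up by 0.53 on the log2 scale for macrophages and 0.80 for the DC class. The split of genes into higher and lower became 18.8% and 25.3% for macrophages, and 16.2% and 25.5% for the DC class. Junb, Atf3, Dusp1 and Zfp36 were then higher in both classes. Jund, Egr1 and Ier2 remained lower in macrophages, Jun no longer passed the threshold, and no member was lower in the DC class.

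**Figure D1:**
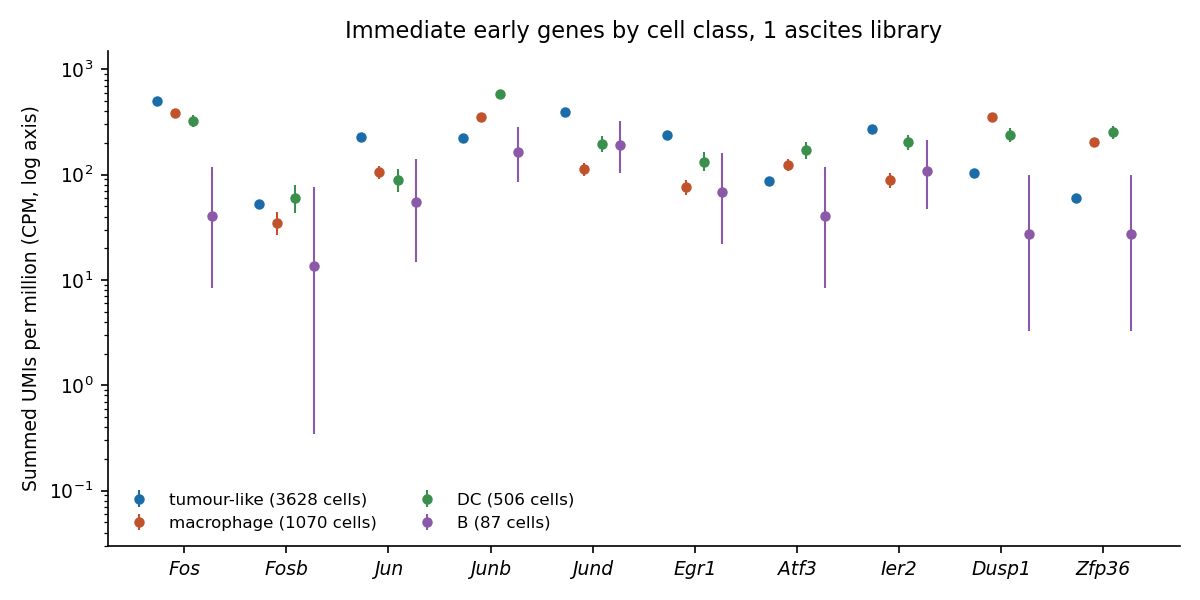
Summed UMIs as CPM (log axis) of each member in 4 cell classes of 1 library, with 95% counting intervals as bars. Dusp1 and Zfp36 are lowest in tumour-like cells among the 3 large classes, while Jund, Jun and Egr1 are highest there. B cell values rest on 1 to 14 UMIs per gene.

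**Figure D2:**
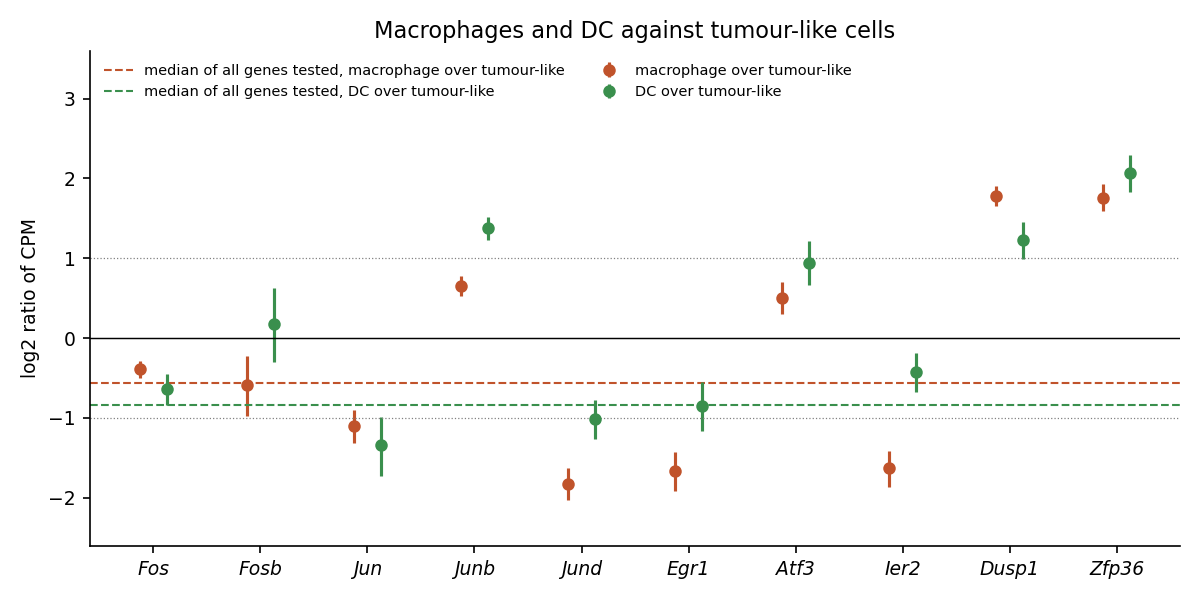
log2 ratio of CPM in macrophages (orange) and the DC class (green) over tumour-like cells for each member, with 95% counting intervals. Dashed lines mark the median of all genes compared (-0.56 and -0.84), and dotted lines a 2-fold difference. Dusp1 and Zfp36 lie above the upper dotted line in both classes and Jun below the lower one.

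Among the Fos subunits, Fos stood at 504 CPM in tumour-like cells (494 to 514), 385 in macrophages (357 to 414) and 324 in the DC class (283 to 368). The tumour-like interval lies above the other 2, which overlap each other, although the direct ratio of those 2 classes (below) excluded 1. Fos was at 0.763 times the tumour-like level in macrophages (0.707 to 0.823) and 0.642 times in the DC class (0.560 to 0.732). Neither difference reached 2-fold, and under median scaling both turned to slightly higher, at 1.10 and 1.12. After every cell was thinned to 500 UMIs, 22.1% of tumour-like cells, 18.5% of macrophages and 15.6% of the DC class kept a Fos UMI, where 77.8%, 45.0% and 32.6% had one before thinning. In B cells Fos had 3 UMIs (40.8 CPM, interval 8.42 to 119), and 73.0 CPM would be given by free RNA alone, so B cells showed no Fos above background at this depth. The 3 UMIs of T cells came to 164 CPM (33.9 to 479.8), where free RNA would give 128 CPM.

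Fosb, a close relative of Fos that also has a short form without part of the activation domain, was at 52.4 CPM in tumour-like cells (49.2 to 55.7), 34.8 in macrophages (26.9 to 44.3) and 59.3 in the DC class (42.8 to 80.2). The ratio of the DC class to tumour-like cells was 1.13 (0.812 to 1.54), so they could not be told apart at this depth. Macrophages were at 0.665 times the tumour-like level (0.511 to 0.853). Fosb made up 9.41% of the Fos and Fosb UMIs of tumour-like cells (8.87 to 9.97%), 8.30% in macrophages (6.48 to 10.4%) and 15.5% in the DC class (11.4 to 20.4%).

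The Jun subunits showed the clearest change of makeup. Jun, the strongest activator of the family, was at 226 CPM in tumour-like cells (219 to 233), 105 in macrophages (91.0 to 121) and 89.0 in the DC class (68.4 to 114). Both leukocyte classes lay below tumour-like cells, at 0.465 times (0.401 to 0.536) and 0.394 times (0.302 to 0.505), and overlapped each other. Jund, which is known to be expressed more steadily than its relatives, was at 396 CPM in tumour-like cells (387 to 405), 112 in macrophages (97.4 to 128) and 196 in the DC class (165 to 232). It thus stood at 0.283 times the tumour-like level in macrophages (0.245 to 0.324) and 0.496 times in the DC class (0.416 to 0.586), an interval that reaches past 0.5.

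Junb, a weaker activator that can oppose Jun, went the other way over whole classes, though not in macrophages of 2000 to 4000 UMIs (below). It was at 222 CPM in tumour-like cells (216 to 229), 349 in macrophages (323 to 377) and 577 in the DC class (522 to 635), 3 levels whose intervals do not overlap. The ratio to tumour-like cells was 1.57 in macrophages (1.45 to 1.71) and 2.60 in the DC class (2.34 to 2.87). T cells held 11 Junb UMIs (602 CPM, 300.5 to 1077) of the 24 UMIs of all members, and B cells 12 (163 CPM, 84.4 to 285).

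As a share of the UMIs of Jun, Junb and Jund together, a measure that does not depend on scaling, Junb was 26.3% in tumour-like cells (25.6 to 27.0%), 61.7% in macrophages (58.7 to 64.6%) and 66.9% in the DC class (63.0 to 70.6%). Jund took 46.9% in tumour-like cells, 19.8% in macrophages and 22.8% in the DC class. Jun made up 26.8%, 18.5% and 10.3% in the same order. In T cells 11 of 15 family UMIs were Junb (73.3%, 44.9 to 92.2%) and in B cells 12 of 30 (40.0%, 22.7 to 59.4%).

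**Figure D3:**
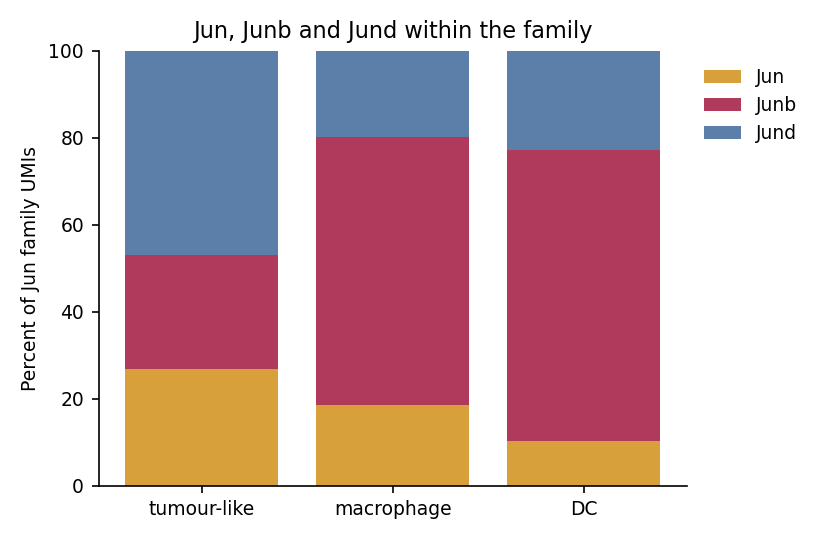
Stacked bars give the percent of Jun, Junb and Jund UMIs within the Jun family in 3 cell classes. Junb takes 26.3% in tumour-like cells and 61.7% and 66.9% in macrophages and the DC class.

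Some Jun family counts are uncertain because other genes overlap them on the opposite strand and the sources used here do not state whether counting used strand. In GENCODE M21 on GRCm38, Junb (ENSMUSG00000052837, chr8:84974484-84978718, minus strand, 1 exon) overlaps Prdx2, Jun (ENSMUSG00000052684, chr4:95049034-95052222, minus strand, 1 exon) overlaps the antisense gene Junos, and Jund (ENSMUSG00000071076, chr8:70698949-70700616, plus strand, 1 exon) overlaps the antisense gene Gm11175. Prdx2 was at 588 CPM in tumour-like cells, 220.1 in macrophages and 219 in the DC class, an order opposite to that of Junb. Junos and Gm11175 had 29 and 7 UMIs in tumour-like cells. Dusp1 (ENSMUSG00000024190, chr17:26505590-26562128, minus strand) overlaps Ergic1, at 23.6 CPM in tumour-like cells and 17.9 in macrophages, and Zfp36 (ENSMUSG00000044786, chr7:28376784-28380253, minus strand) overlaps the antisense gene Gm44710. Fos (ENSMUSG00000021250, chr12:85473890-85477273, plus strand), Fosb (ENSMUSG00000003545, chr7:19302696-19310051, minus strand) and Ier2 (ENSMUSG00000053560, chr8:84661331-84662852, minus strand) overlap no other annotated gene. Atf3 (ENSMUSG00000026628, chr1:191170296-191218039, minus strand) spans a small RNA gene. Egr1 is ENSMUSG00000038418.

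Of the 3 other nuclear proteins, Egr1 and Ier2 were higher in tumour-like cells and Atf3 in the leukocyte classes, each class taken whole. Egr1, a zinc finger activator, was at 239 CPM in tumour-like cells (232 to 246), 75.5 in macrophages (63.6 to 88.9) and 133 in the DC class (107 to 163). Macrophages stood at 0.316 times the tumour-like level (0.265 to 0.373) and the DC class at 0.556 times (0.448 to 0.681), and none of the 3 intervals overlap. Ier2, a small nuclear protein, was at 273 CPM in tumour-like cells (266 to 280.5), 88.2 in macrophages (75.3 to 103) and 203 in the DC class (172 to 239.6). Its ratio to tumour-like cells was 0.323 in macrophages (0.275 to 0.377) and 0.745 in the DC class (0.627 to 0.879), and the latter became 1.30 under median scaling. Atf3, a stress-induced repressor that is known to restrain inflammatory genes in macrophages, was at 87.9 CPM in tumour-like cells (83.9 to 92.2), 125 in macrophages (109 to 142) and 169.6 in the DC class (141 to 203). Its ratios of 1.42 (1.23 to 1.62) and 1.93 (1.59 to 2.32) stayed under 2-fold, although Atf3 passed that threshold in both classes under median scaling. Among cells of 1000 to 2000 UMIs Atf3 was at 103 CPM in tumour-like cells, 139 in macrophages and 194 in the DC class. Among those of 2000 to 4000 UMIs the 3 classes were level, at 101, 102 and 103 CPM.

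Both feedback genes were higher in the leukocyte classes taken whole, though Dusp1 was not in DC class cells of 2000 to 4000 UMIs (below). Dusp1 was at 103 CPM in tumour-like cells (98.2 to 107), 353 in macrophages (326 to 380.4) and 240.2 in the DC class (205 to 279), 3 separate intervals with the highest level in macrophages. The ratio to tumour-like cells was 3.44 in macrophages (3.14 to 3.75) and 2.34 in the DC class (1.99 to 2.74). After thinning to 500 UMIs, 15.1% of macrophages (13.0 to 17.4%), 11.5% of the DC class (8.82 to 14.6%) and 5.46% of tumour-like cells (4.74 to 6.25%) kept a Dusp1 UMI, and 40.5%, 27.3% and 36.0% had one before thinning. Zfp36 was at 59.8 CPM in tumour-like cells (56.5 to 63.3), 203 in macrophages (183 to 224) and 252 in the DC class (216 to 291). Here the intervals of the leukocyte classes overlapped, at 3.39 times (3.01 to 3.80) and 4.20 times (3.57 to 4.92) the tumour-like level. Their direct ratio (below) excluded 1 all the same. Free RNA would give 23.2 CPM of Dusp1 and 9.78 CPM of Zfp36 in macrophages, far under the levels seen.

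The order of Dusp1 and Zfp36 between macrophages and tumour-like cells was the same at matched depth. Among barcodes of 1000 to 2000 UMIs, an alternative chosen after seeing the data, 202 tumour-like cells, 630 macrophages and 339 cells of the DC class remained. Dusp1 was then at 155 CPM in tumour-like cells (114 to 207), 368 in macrophages (331 to 409) and 258 in the DC class (215 to 307). Zfp36 was at 76.1 (48.2 to 114), 219 (190.1 to 251) and 258 CPM (215 to 307) in the same order. Jund, at 364, 122 and 207 CPM, and Junb, at 288, 432 and 628 CPM, kept their order as well. At this depth Dusp1 and Jund no longer passed 2-fold between the DC class and tumour-like cells, at 1.66 and 0.568. Cells of 2000 to 4000 UMIs numbered 882 (tumour-like), 300 (macrophages) and 53 (DC class). There Junb was at 281 (262 to 301), 242 (208 to 279) and 333 CPM (240.1 to 450), with overlapping intervals and no rise in macrophages. Dusp1, at 114 (102 to 127), 330 (291 to 373) and 103 CPM (54.9 to 176), was not higher in the DC class. Jund, at 402, 93.9 and 143 CPM, and Zfp36, at 62.4, 185 and 222 CPM, kept their order.

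The DC class and macrophages were also compared directly. Ier2 was the member past 2-fold, at 2.31 times the macrophage level (1.83 to 2.90), against 6.91% of 6508 genes higher, and no member was lower, against 20.3% of genes. Egr1 (1.76, 1.34 to 2.30), Jund (1.76, 1.41 to 2.18), Fosb (1.70, 1.13 to 2.55) and Junb (1.65, 1.45 to 1.87) were higher by less than 2-fold. So were Atf3 (1.36, 1.08 to 1.70) and Zfp36 (1.24, 1.03 to 1.49). Dusp1 was lower at 0.681 (0.572 to 0.807) and Fos at 0.841 (0.722 to 0.977). The interval of Jun (0.847, 0.628 to 1.13) included 1. The member median was 0.58 on the log2 scale and that of all genes -0.24. Median scaling, a shift of 0.23 that gave 10.1% of genes higher and 15.7% lower, placed Fosb, Jund, Egr1 and Ier2 past 2-fold. Among barcodes of 1000 to 2000 UMIs Ier2 fell to 1.80 and no member passed.

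B and T cells were too few for most members. In B cells 8 members could be compared with tumour-like cells, all but Fosb and Zfp36, and 7 were at most 0.5 times as high (44.5% of 1546 genes), none higher (3.04% of genes). The ratios were 0.0810 for Fos (0.0167 to 0.237), 0.241 for Jun (0.0656 to 0.617), 0.265 for Dusp1 (0.0321 to 0.960), 0.285 for Egr1 (0.0924 to 0.665), 0.399 for Ier2 (0.172 to 0.786) and 0.481 for Jund (0.263 to 0.808). That of Atf3, on 3 UMIs, was 0.465 with an interval that includes 1 (0.0957 to 1.36). The exception was Junb at 0.736 (0.380 to 1.29), which became 1.29 under median scaling. That scaling moved B cell ratios by 0.81 on the log2 scale, gave 16.0% of genes higher and 23.3% lower, and left 4 members lower. Adding the B barcodes that met a second rule left 2 members lower and raised the member sum from 735 to 1583 CPM. Of these barcodes, 10 also met the tumour-like rule and 5 the macrophage rule. Barcodes that met more than 1 rule had a median of 4174 UMIs, against 753 in B cells. Whether they hold RNA of more than 1 cell was not tested. In T cells 2 members could be compared, of which Fos was lower at 0.326 (0.0671 to 0.952) and Jund was at 0.553 (0.151 to 1.42), against 32.4% of 432 genes lower and 7.64% higher. Median scaling moved T cell ratios by 0.41 and gave 17.8% of genes higher and 24.5% lower. Fosb, Jun, Egr1, Atf3 and Dusp1 had no UMI in the 22 T cells, which allows up to 164 CPM each.

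Other genes of the pathway were read from lists chosen with earlier results of these data known, beside the same background shares. Of 42 other immediate early genes, 38 could be compared between macrophages and tumour-like cells, with 12 higher and 7 lower and a median log2 ratio of 0.28. In the DC class 34 could be compared, with 12 higher and 9 lower. The neutrophil chemokine Cxcl2 was at 1617 CPM in macrophages, 235 in the DC class and 6.45 in tumour-like cells. Klf2, a zinc finger factor that quiets leukocytes and endothelium, was at 207 CPM in macrophages, 60.8 in the DC class and 7.56 in tumour-like cells. The matricellular gene Cyr61 ran the other way, at 115 CPM in tumour-like cells, 4.75 in macrophages (0.0414 times, 0.0189 to 0.0788) and 14.1 in the DC class. The nuclear receptor Nr4a2 was at 117 CPM in the DC class, 11.1 in macrophages and 2.67 in tumour-like cells. Plk3, a stress kinase, was at 3.27 CPM in tumour-like cells and had no UMI in the DC class, which allows 4.24 CPM. Nr4a2 and Plk3 had too few UMIs to count in the DC comparison.

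Among 12 partners of AP-1, 8 could be compared in macrophages with 3 higher and 1 lower, and 6 in the DC class with none higher and 2 lower. Batf3, a Jun partner required for a branch of dendritic cells, was at 105 CPM in the DC class, 36.4 in macrophages and 0.403 in tumour-like cells. Batf was at 29.7, 24.3 and 0.302 CPM in the same order. Batf had too few UMIs for either comparison, and Batf3 for that of the DC class, so they are not among those counts.

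Among 24 kinases and factors upstream, 22 could be compared in macrophages, 3 higher and 4 lower, and 20 in the DC class, 2 higher and 5 lower. Mapk3, which encodes the kinase ERK1, was at 154 CPM in tumour-like cells, 55.4 in macrophages (0.360 times, 0.293 to 0.437) and 55.1 in the DC class (0.358 times, 0.254 to 0.490). Elk3, a partner of serum response factor, was at 25.3 CPM in macrophages and 4.18 in tumour-like cells (6.06 times, 4.16 to 8.75). The cAMP-responsive factor Crem was at 13.0 CPM in tumour-like cells and 4.75 in macrophages. Mkl2, a serum response coactivator, was at 16.3, 7.39 and 4.24 CPM in tumour-like cells, macrophages and the DC class, and the kinase Map2k4 at 15.2, 8.97 and 4.24 CPM.

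Of 9 other MAP kinase phosphatases, 7 could be compared in macrophages, 1 higher and 4 lower with a median log2 ratio of -1.74, and 6 in the DC class, none higher and 3 lower. The higher one was Dusp7, at 13.2 CPM in macrophages and 4.48 in tumour-like cells (2.94 times, 1.81 to 4.63). Dusp3 was at 1.46 times the tumour-like level in macrophages (1.28 to 1.65). Dusp2, too sparse to be compared, had 24 UMIs in macrophages and 7 in tumour-like cells. Dusp5 was at 1.80 times in the DC class (1.05 to 2.89). These 4 were named after their values were seen. Dusp16 was at 18.7 CPM in tumour-like cells and 3.17 in macrophages (0.170 times, 0.0618 to 0.372). Dusp8 and Dusp10, at 8.26 and 8.31 CPM in tumour-like cells, each had 1 UMI in macrophages (ratios 0.0639, interval 0.00161 to 0.361, and 0.0635, interval 0.0016 to 0.359). Dusp6, which acts on ERK, was at 15.2 CPM in tumour-like cells, 24.8 in macrophages and 5.65 in the DC class (4 UMIs).

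Of 13 messages known to be bound by Zfp36, Cxcl2 among them, 10 could be compared in macrophages, with 7 higher and 1 lower and a median log2 ratio of 5.44, and 7 in the DC class, with 3 higher and 3 lower. The chemokines Ccl3 and Ccl4 were at 676 and 476 CPM in macrophages, 119 and 242 in the DC class, and 3.02 and 2.17 in tumour-like cells. Il1b was at 175 CPM in the DC class, 49.6 in macrophages and 0.705 in tumour-like cells. These are leukocyte genes, and cell type and Zfp36 level cannot be told apart here.

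Heat shock genes, which also respond to handling of cells, numbered 12, of which 10 could be compared in macrophages and 9 in the DC class. None was higher and 4 were lower in each, beside 36.4% and 44.7% of all genes lower, so these counts were near the background. Hspa1a, too sparse to be compared and named after its values were seen, had 8 UMIs in macrophages and 3 in tumour-like cells (ratio 27.95, 6.71 to 164). Hspb1 was at 810.0 CPM in tumour-like cells, 82.4 in macrophages and 103 in the DC class, and Hsp90ab1 at 1748, 561 and 538 CPM. Hsph1 was at 6.45 CPM in tumour-like cells and 1.58 in macrophages, and Bag3 at 19.6 CPM in tumour-like cells and 2.83 in the DC class (2 UMIs). Whether the members were induced during cell preparation was not tested.

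Within tumour-like cells the members differed between cell states. Cells with at least 2000 UMIs (3376) were thinned to 2000 UMIs and split by sums of marker UMIs, which gives a range of cells and not a cell type. The first split was by the glutathione transferases Gstm1 and Gstm2. The 871 cells with 21 or more Gstm UMIs had a member sum of 2854 CPM and the other 2505 cells 2015 CPM, a ratio of 1.42 (1.37 to 1.47). Fosb was at 3.54 times (2.88 to 4.35), Fos at 1.60 (1.49 to 1.72), Atf3 at 1.50 (1.27 to 1.78) and Ier2 at 1.48 (1.34 to 1.62), and the ratios of 9 members were above 1. Zfp36 alone was below, at 0.666 (0.517 to 0.849). The median ratio over all genes was 1.06.

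In 4 groups ordered by Gstm UMIs (798 cells with 0 to 4, 811 with 5 to 10, 896 with 11 to 20 and 871 with 21 to 71), Fos was at 345, 448, 536 and 716 CPM. Fosb was at 16.3, 25.3, 59.2 and 122 CPM, Egr1 at 195, 216, 262 and 321, and Ier2 at 186, 267, 311 and 379. Zfp36 ran in the opposite order, at 84.6, 68.4, 60.3 and 47.1 CPM, and Junb changed least, from 209 to 273 CPM. The mitochondrial share also moved along this order, with medians of 2.90%, 3.11%, 3.44% and 3.88%. Within cells of 4000 to 8000 UMIs and 2 to 4% mitochondrial UMIs (325 and 930 cells), a band chosen after seeing the data, the member sum ratio was 1.44 (1.36 to 1.53). Fosb was at 3.12 there (2.13 to 4.59). Zfp36 was at 0.746 (0.502 to 1.08), an interval that includes 1.

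**Figure D4:**
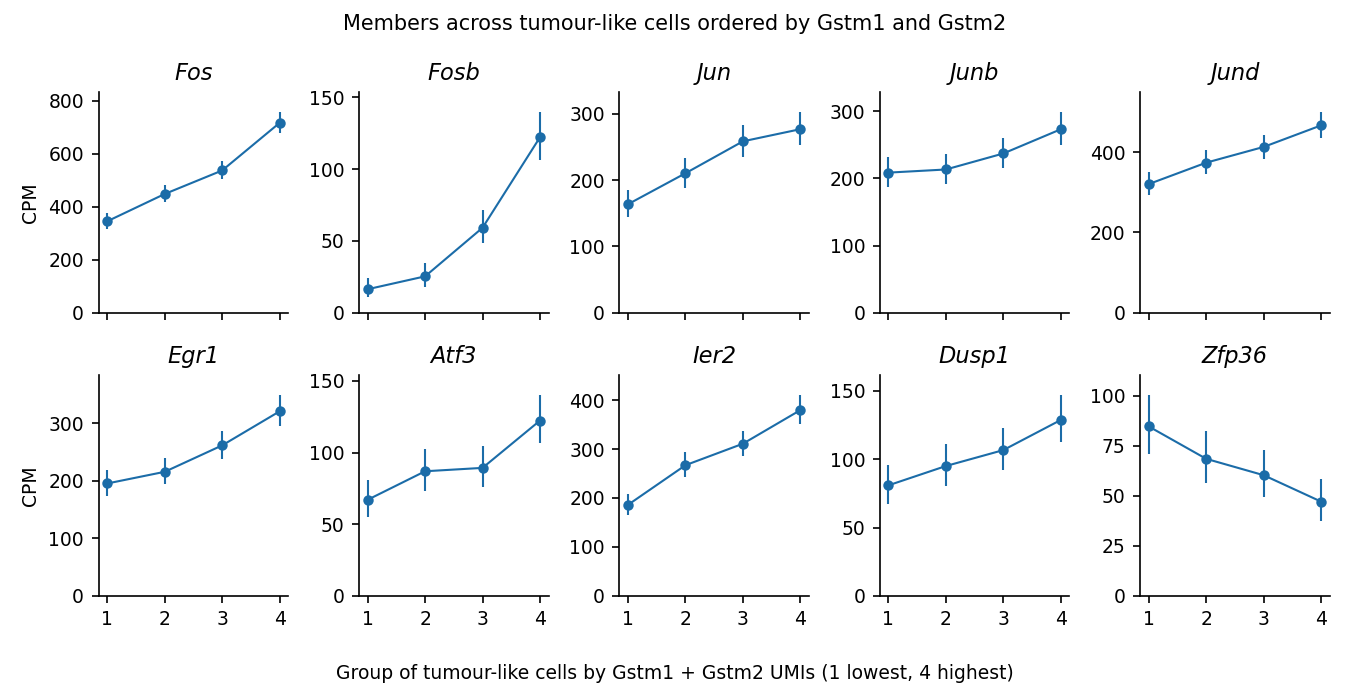
CPM of each member in 4 groups of tumour-like cells ordered by Gstm1 and Gstm2 UMIs, each cell thinned to 2000 UMIs, with 95% counting intervals. Fosb goes from 16.3 to 122 CPM and Fos from 345 to 716, while Zfp36 goes from 84.6 down to 47.1.

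Cells with UMIs of cell cycle genes had less of most members. The 285 cells with a UMI of Top2a, Mki67, Birc5 or Cenpf had a member sum of 1556 CPM and the other 3091 cells 2293 CPM, a ratio of 0.679 (0.633 to 0.726), where the median over all genes was 0.992. Fosb was at 0.259 (0.117 to 0.497), Zfp36 at 0.360 (0.195 to 0.610) and Ier2 at 0.519 (0.415 to 0.642). All 10 ratios were below 1, with that of Dusp1 at 0.891 (0.660 to 1.18). The cells with a cycle UMI were deeper before thinning, with a median of 6620 UMIs against 5170. Within the band of depth and mitochondrial share (83 and 1172 cells) the sum ratio was 0.696 (0.611 to 0.790). Ier2 was at 0.447 there (0.278 to 0.682). The intervals of Fosb (0.509, 0.136 to 1.34, on 4 UMIs) and Zfp36 (0.681, 0.289 to 1.37) included 1, and Fos and Junb were at 0.888 and 0.945. Among cells without a cycle UMI, the sum was 2872 CPM in Gstm-high cells and 2078 in the others, and among cells with one it was 2379 (33 cells) and 1448 CPM (252 cells), so both differences were seen in either set.

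Fosb and Zfp36 also parted along other splits. In the 1061 cells with 2 or more UMIs of Lgals2 and C3, Fosb was at 0.370 (0.274 to 0.493) and Zfp36 at 1.38 (1.13 to 1.68) times the level of the rest, and the member sum at 0.926. In the 844 cells with the largest mitochondrial share (4.17% and over), Fosb was at 2.08 (1.69 to 2.56) and Zfp36 at 0.623 (0.479 to 0.801), and the sum at 1.19. The corresponding sums were 1.07 for Defb19 and Defb36, 0.852 for Wfdc18, Gng13 and Sncg, and 1.005 for Abhd2, Pam and Spry2. In the band of depth and mitochondrial share the Lgals2 and C3 split kept Fosb at 0.438 (0.259 to 0.708) and Zfp36 at 1.96 (1.44 to 2.67). For the mitochondrial split Fosb came to 1.42 (0.934 to 2.13) and Zfp36 to 0.954 (0.657 to 1.36), intervals that include 1. Across all tumour-like cells, Fosb went from 22.3 CPM under 2% mitochondrial UMIs to 39.3, 81.0, 101 and 113 CPM at 2 to 4, 4 to 6, 6 to 10 and 10 to 15%.

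**Figure D5:**
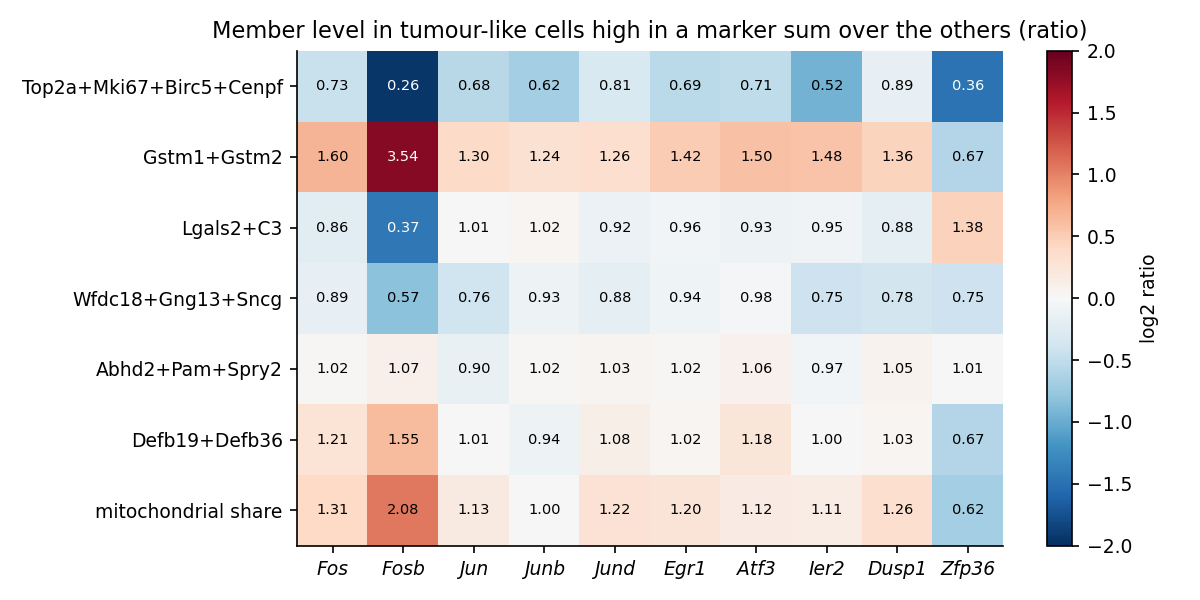
Each cell gives the ratio of a member's CPM in tumour-like cells high in a marker sum over the other tumour-like cells, coloured by log2 ratio. The Top2a row is below 1 for every member, the Gstm1 row is above 1 for every member but Zfp36, and Fosb spans the widest range (0.26 to 3.54).

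In macrophages, thinned to 1000 UMIs, 252 cells with 14 or more UMIs of Pf4, Arg1 and Saa3 were set against 692 others. The member sum was 1710.3 and 1991 CPM, a ratio of 0.859 (0.769 to 0.958). Junb at 0.566 (0.422 to 0.748) and Egr1 at 0.499 (0.246 to 0.932) were lower, while the intervals of the other 8 members included 1. These cells were deeper, with a median of 2034.5 UMIs against 1629.5. Junb in macrophages was itself lower at greater depth, at 432 CPM in cells of 1000 to 2000 UMIs and 242 CPM in those of 2000 to 4000.

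Cells with a Fos UMI held more of the other members. Tumour-like cells with a Fos UMI after thinning to 2000 (1858) were compared with those without (1518). All 9 other members had a ratio above 1, from 1.31 for Jund (1.21 to 1.41) through 1.54 for Jun (1.38 to 1.71), 1.76 for Dusp1 (1.50 to 2.08) and 1.77 for Atf3 (1.49 to 2.11) to 2.43 for Fosb (1.93 to 3.10). Fosb alone passed 2-fold, as did 2.53% of 10573 genes, and the median ratio was 1.54 for the members and 1.02 for all genes. The sum of the 9 was 2017 CPM with Fos and 1345 without, a ratio of 1.50 (1.44 to 1.56), and mitochondrial shares were 3.45% and 3.17%. In 141 macrophages with and 173 without a Fos UMI, 8 of 9 ratios were above 1, none passed 2-fold (4.63% of 3695 genes did), and the sum ratio was 1.36 (1.17 to 1.57).

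Across single cells, Pearson's r between pairs of members, on log-normalised levels that share library and depth, ran from -0.002 to 0.18 over the 45 pairs in tumour-like cells, with a median of 0.09, and from -0.10 to 0.22 in macrophages. Counts per cell were small, with a median of 4 member UMIs in a tumour-like cell at 2000 UMIs and at most 23, and 6.19% of cells had none. The 338 cells with the most member UMIs held 26.0% of them, and the same measure for heat shock genes was 18.1%. The means were 4.46 member UMIs and 8.60 heat shock UMIs per cell, and a lower mean by itself gives a larger share, so the shares are not compared. The non-member genes most like the member sum across the 3376 tumour-like cells were Btg2 (r = 0.31), an antiproliferative early gene, then Gstm2 (0.25), Gstm1 (0.24), mt-Co1 (0.22), Malat1 (0.22), Chka (0.21), Hes1 (0.20), Chchd10 (0.20), H3f3b (0.20) and Gm26532 (0.20). In 314 macrophages the first was Btg1 (0.19), followed by Cxcl2 (0.16), and then Gpx1, Rplp0, Trappc6a, Nfkbia, Ier3, Sh3bgrl3, Rpl12 and Rpl13, at 0.16 each.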

How the data were processed

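The values deposited by the authors are UMI counts per gene and barcode for all 737280 barcodes of the single-cell library, with no cell filter. The sources used here do not name an aligner, a genome build or a strand setting. A table of the bulk libraries has 8 columns whose names match no sample label, so it was not used, and the bulk comparison named with the members was not run. Of 27998 gene identifiers, 27645 matched GENCODE M21.

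Counts were added up within each class and divided by the class total to give counts per 1e6 UMIs (CPM). Levels have exact Poisson intervals, shares exact Clopper-Pearson intervals and ratios exact conditional binomial intervals, all at 95% and for counting error only. Genes were compared when their expected count in the smaller class was at least 5, over 5 pairs of classes. The limit from a count of 0 was 3 counts over the class. Free RNA was estimated from genes foreign to a class and the profile of barcodes with 1 to 50 UMIs (306235 UMIs). Sums with free RNA subtracted use that profile, and not the one of barcodes with 100 to 200 UMIs (7829300 UMIs). Scrublet in scanpy 1.11.5 marked 89 of 6442 barcodes (1.38%), which stayed in. Tools were Python 3.11.15, numpy 2.4.6, scipy 1.17.1, pandas 2.3.3 and matplotlib 3.10.9, and the ratio calculation was checked on simulated data. The members and lists were chosen with earlier results of these data known. All 10 members are named. From each other list, the 3 genes with the largest log2 ratio in either direction in macrophages and in the DC class, among those with at least 50 UMIs, are named, together with the 10 genes most like the member sum. 1 gene that this rule names is not reported here. Depths ranged from 500 to 19947 UMIs per passing barcode, with a median of 3300.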

Additional observations from a re-analysis of the deposited data

Results flagged for a closer look

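Barcodes outside the 5 classes also carried member UMIs, which the comparisons above do not use. The 264 barcodes that met the tumour-like rule but had over 15% mitochondrial UMIs had a member sum of 2496 CPM, with Fosb at 147 CPM (114 to 186) against 52.4 CPM in the tumour-like class. The 1089 barcodes that met no class rule had a sum of 2059 CPM. The 40 barcodes that met more than 1 rule had a sum of 2328 CPM. The 474 barcodes with 500 or more UMIs but fewer than 200 genes had a sum of 201 CPM, on 98 UMIs. There are no control samples, and the share of free RNA in these barcodes was not estimated. Barcodes with 1 to 50 UMIs, taken as free RNA, themselves had Fos at 398 CPM and Fosb at 26.1 CPM.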

How the results depend on the processing

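No paired analysis was possible because the bulk columns carry no sample label and the single-cell data are 1 library. Of the ratios of single members recomputed under alternatives, 312 kept their direction and side of the 2-fold threshold, 18 no longer passed it, 15 newly passed it and 5 reversed. The reversed ones were Fos at 1.10 and 1.12, Ier2 at 1.30 (DC class) and Junb at 1.29 (B) under median scaling, and Atf3 in B cells at 1.25 with barcodes of more than 1 class. The cause was not tested. With those barcodes the member sum of B cells was 1583 CPM, and 1 member was lower in the DC class, 2 in B cells and 3 in T cells, where 1 was higher. With at least 1000 UMIs the T cell sum was 164 CPM and no T cell member (0) was lower. Subtracting free RNA gave sums of 1822 (tumour-like), 1591 (macrophage), 2006 (DC), 385 (B) and 697 CPM (T), with 2 members lower in T cells and 3 higher in the DC class than in macrophages. Leaving MHC class II genes out of that estimate gave 2067 in tumour-like cells, the same 1591, 2006, 385 and 697 CPM elsewhere, and the same 2 and 3 members. Median scaling gave sums of 2639 (macrophage), 3905 (DC) and 1287 CPM (B), with 4 members higher in macrophages, 0 lower in the DC class, 4 lower in B cells and 4 higher in the DC class than in macrophages. Without the filter on low counts 1 T cell member was higher. At 1000 to 2000 UMIs the sums were 2497, 2072 and 2379 CPM, with 1 member lower in the DC class and 0 higher than in macrophages. With the top 10% of cells taken, the sum ratio was 1.37 by Gstm and 1.14 by mitochondrial share. In the band of depth and mitochondrial share it was 0.990 for Lgals2 and C3, 0.970 for Abhd2, Pam and Spry2, 1.03 for Defb19 and Defb36, and 1.08 for mitochondrial share. Thinned to 1000 UMIs, the Fos split gave 1.42 in tumour-like cells and 1.13 in macrophages. The last 2 sets of depth settings and the second free RNA estimate were chosen after seeing the data. Apart from median scaling, the share of all genes past 2-fold under these settings is not given here. The counts of members under them therefore cannot be set against the general shift. Depth limits B and T cells, with 54 and 24 member UMIs.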
